A study of Drosophila melanogaster with 6 samples.

Results

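The heat shock proteins described here are 10 named genes: the small heat shock proteins Hsp23, Hsp26, Hsp27 and l(2)efl, the larger chaperones Hsp60A, Hsp68, Hsp83, Hsc70Cb and DnaJ-1, and Hsf. A gene was included where the platform annotation gave it a probe set of its own. That held for 8 of the 10 genes (10 probe sets) among 11982 genes (18769 probe sets) of the array. Hsp23 and Hsp83 were named for no probe set in the annotation and were not analysed here. Hsc70Cb is listed as Hsp110 in the current gene table.

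Heat shock proteins are chaperones, proteins that hold or refold other proteins when heat, oxidation or age unfolds them. Small heat shock proteins of the alpha-crystallin family bind unfolding proteins without using ATP and keep them from clumping. Larger chaperones (the Hsp60, Hsp70, Hsp90 and Hsp110 families with their J protein partners) refold such proteins with ATP. In flies, many of these genes are switched on by the heat shock factor Hsf, and several small ones are known to rise in old flies and to lengthen life when overexpressed.

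All samples were whole male flies of the strain W1118 at an age of 30 days, labelled wild type although this laboratory stock is white-eyed. They lived on control food or on food with 50 µmol/l lithocholic acid (LCA), a bile acid that gut bacteria make in vertebrates. The question of the study is how this diet acts on pathways linked to fly lifespan. Each diet had 3 Affymetrix arrays, and each array carried RNA from a pool of 10 flies. Whether the pools were raised in separate cultures is not stated. The tests therefore rest on pool-to-pool spread, which may be technical in part.

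Values are log2 signals as the authors deposited them, and an array gives no detection call with them. The median log2 signal lay between 6.31 and 6.35 on control arrays and between 6.38 and 6.39 on LCA arrays. All 10 heat shock probe sets lay above the median of every array. The sex label was checked against marker genes: the sperm gene Mst84Da was bright (11.93 in control flies). Of 4 female markers, the chorion gene Cp36 (4.11 to 4.43) and the yolk gene Yp2 (3.71 to 4.01) were dim on all arrays. The yolk gene Yp1 lay below the array median too but reached 6.29 in LCA replicate 3, and Yp3 lay above the median of every array (6.85 to 7.46). Control replicate 1 stood apart: the median of 18 testis markers there was 0.86 below their mean over arrays (log2), against 0.20 below and 0.19 above in the other control arrays. In whole flies, fewer cells of a type and less RNA per cell cannot be told apart.

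No heat shock gene passed the test between the diets. Of the 8 measured genes, 4 were higher and 4 lower in LCA flies, with a median log2 difference of 0.02 (LCA minus control) against 0.00 over all 11982 genes (6031 of them, 50.3%, lower). limma placed 0 of the 8 under an adjusted p of 0.05, as it did 0 of 18769 probe sets. At an unadjusted p under 0.05 it counted 0 of the 8, while 20.1% of all genes passed (9.63% higher and 10.5% lower) and 16.1% of all probe sets. The 3 LCA arrays lay wholly above the 3 control arrays for Hsp27 alone and wholly below them for Hsf alone. That is 2 of 8 genes, against 26.1% of all genes (11.2% higher and 15.0% lower).

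**Figure D1:**
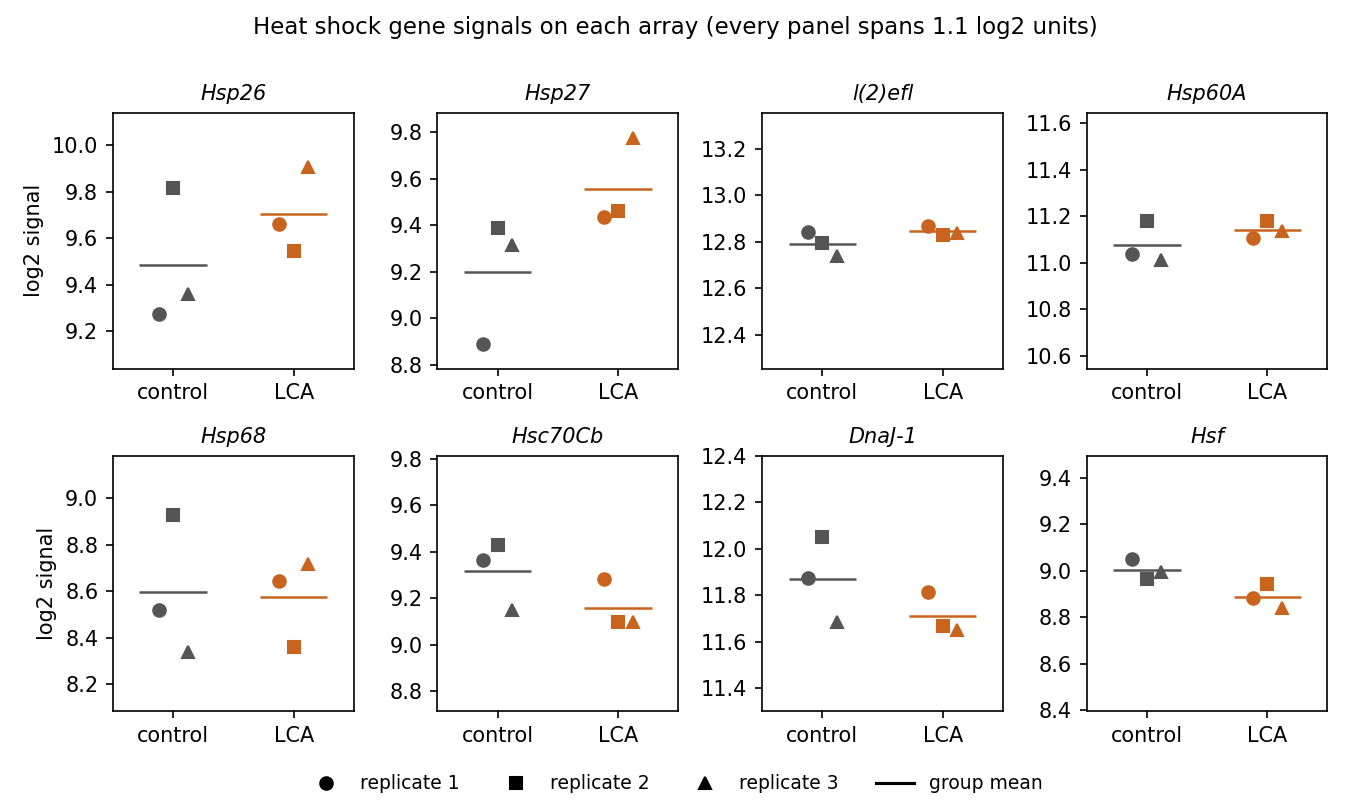
Log2 signal of the 8 measured heat shock genes on each of the 6 arrays (brightest probe set of each gene); symbols give the replicate number, bars the mean of 3 arrays, and each panel has its own vertical range of equal height, so levels of different genes are not to be compared. Hsp27 on LCA arrays (9.44 to 9.78) lies above control arrays (8.89 to 9.39), and the groups overlap for every other gene but Hsf.

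Among the small heat shock proteins, Hsp27 had the largest difference. This alpha-crystallin protein of the nucleus and cytoplasm is induced by heat and, in development, by ecdysone. It read 8.89, 9.39 and 9.32 in control replicates 1 to 3 and 9.44, 9.46 and 9.78 in LCA replicates 1 to 3. The groups did not overlap, but LCA replicate 1 was only just above control replicate 2, and most of the difference came from a low control replicate 1 and a high LCA replicate 3. LCA arrays averaged 9.56 ± 0.19 and control arrays 9.20 ± 0.27 (SD, n = 3 each). They differed by 0.36 ± 0.16 on the log2 scale (SE), or 1.28-fold with a 95% interval from 0.987 to 1.67 (limma, adjusted p = 0.320 over all probe sets). Without control replicate 1 the difference was 0.21.

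Hsp26, a cytosolic small heat shock protein, was spread over both diets. Its log2 signals were 9.27, 9.82 and 9.36 on control arrays and 9.66, 9.54 and 9.91 on LCA arrays. Control replicate 2 lay above 2 of the LCA arrays, so the groups overlapped. Between diets Hsp26 differed by 0.22 ± 0.17 on the log2 scale (SE), or 1.17-fold with a 95% interval from 0.887 to 1.53 (limma, adjusted p = 0.533). It was 0.12 without control replicate 1 or without LCA replicate 3, and 0.39 without control replicate 2.

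l(2)efl, a small heat shock protein related to vertebrate alpha-B crystallin and found in muscle, was the steadiest of the set on its brightest probe set. That probe set read 12.84, 12.79 and 12.74 on control arrays and 12.87, 12.83 and 12.84 on LCA arrays. The whole range was 0.13 on the log2 scale, and 2.29% of all probe sets had a smaller one. The log2 difference was 0.05 ± 0.08 (SE), with an interval from 0.917 to 1.17 in fold (limma, adjusted p = 0.771). Its other probe sets did not follow the same order of arrays. The second differed by −0.07 ± 0.10, with control replicate 2 highest (11.47) and LCA replicate 3 lowest (11.17). The dimmest differed by 0.19 ± 0.14 and was highest in LCA replicate 1 (8.02), which stood above the other arrays (7.39 to 7.70). Muscle markers, genes of the tissue named above, were measured for 10 of 14 listed, and 2 lay on average below the array median. Of the 10, 7 were lower and 3 higher, with a median of −0.05 and 0 at an unadjusted p under 0.05. For sls, counted as lower (−0.18), the other probe sets differed by 0.33 (unadjusted p under 0.05) and −0.12. The summed linear signal of the muscle markers was 16656 to 17981 in control flies and 15006 to 17480 in LCA flies. Their part in the result for l(2)efl was not tested.

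In the gene table, Hsp26, Hsp67Ba, Hsp23 and Hsp27 follow each other on the chromosome with 1 antisense RNA among them, and CG4461, another alpha-crystallin gene, is the neighbour of Hsp26 on the other side. CG4461 read 10.14, 10.09 and 9.90 on control arrays and 9.96, 9.91 and 9.86 on LCA arrays. Unlike its neighbour it was lower in LCA flies, by −0.13 ± 0.09 (SE, limma adjusted p = 0.503), and the groups overlapped. The further small heat shock proteins with a probe set, CG7409 (−0.16 ± 0.09) and CG13133 (−0.03 ± 0.09), were also lower and did not pass. So all 3 of the small heat shock proteins in the set were on the higher side and all 3 of the others (of 8 listed) on the lower side, with 0 of the 6 at an unadjusted p under 0.05. No difference between these groups was tested.

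The larger chaperones lay near or slightly below their control level, and none passed the test. Hsp60A, the chaperonin of mitochondria, read 11.04, 11.18 and 11.01 on control arrays and 11.11, 11.18 and 11.14 on LCA arrays. Its highest values, in control replicate 2 and LCA replicate 2, were the same to the second decimal. The log2 difference was 0.07 ± 0.08 (SE), with a 95% interval from 0.914 to 1.198 in fold (limma, adjusted p = 0.738).

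Hsp68, an inducible Hsp70-type chaperone that reports stress signalling through JNK in flies, differed more between pools of one diet than between diets. It read 8.52, 8.93 and 8.34 on control arrays and 8.65, 8.36 and 8.72 on LCA arrays, so control replicates 2 and 3 held both the highest and the lowest value. The log2 difference was −0.02 ± 0.17 (SE), with an interval from 0.745 to 1.304 in fold (limma, adjusted p = 0.967). Its sign turned to 0.15 without control replicate 2 and to 0.09 without LCA replicate 2.

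Hsc70Cb and DnaJ-1 ordered the arrays nearly alike. Hsc70Cb is the Hsp110 protein that exchanges nucleotides on Hsp70, and DnaJ-1 is the Hsp40-type partner that hands clients to Hsp70. In mammals, partners of these kinds pull aggregated proteins apart together with Hsp70. Hsc70Cb read 9.37, 9.43 and 9.15 on control arrays and 9.28, 9.10 and 9.10 on LCA arrays. DnaJ-1 read 11.87, 12.05 and 11.69 on control arrays and 11.81, 11.67 and 11.65 on LCA arrays. In both genes control replicate 2 was highest, then control replicate 1, then LCA replicate 1, then control replicate 3, and LCA replicates 2 and 3 were lowest.

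The log2 difference was −0.16 ± 0.11 (SE) for Hsc70Cb, with a 95% interval from 0.754 to 1.07 in fold (limma, adjusted p = 0.486). It was −0.16 ± 0.11 for DnaJ-1, with an interval from 0.743 to 1.08 (adjusted p = 0.505). Leaving out control replicate 2 gave −0.10 and −0.07, and leaving out control replicate 3 gave −0.24 and −0.25. Control replicate 2, the highest array for these genes and for Hsp68, also had the lowest difference between 3′ and 5′ control probe sets, which reads how far labelling ran along intact RNA. The mean over 5 such pairs was 3.43, 2.975 and 3.31 on control arrays and 3.45, 3.45 and 3.61 on LCA arrays. Every LCA array thus lay above every control array, narrowly for LCA replicate 2 (3.448) against control replicate 1 (3.431). In this mean, RNA quality therefore went with diet in these arrays, by a narrow margin. Of the single pairs, only the one named ACTIN separated the diets (2.14 to 2.84 on control arrays, 3.04 to 3.11 on LCA arrays). The other pairs overlapped between diets. Gut markers had the same extremes as the mean of the larger chaperones, highest in control replicate 2 and lowest in control replicate 3. Hsc70Cb and DnaJ-1 themselves shared only the highest array, being lowest in LCA replicates 2 and 3. The median deviation of the gut markers was 0.13, 0.41 and −0.57 on control arrays and 0.20, 0.03 and −0.23 on LCA arrays. The summed linear signal of the gut markers was 20521 to 42147 in control flies and 28524 to 36647 in LCA flies. The part of RNA quality and of gut RNA in these results was not tested. The probe sets of Hsc70Cb, DnaJ-1 and Hsp60A carry the suffix that Affymetrix gives to probes shared by several transcripts.

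Hsf, the transcription factor that binds heat shock elements, read 9.05, 8.97 and 8.996 on control arrays and 8.88, 8.94 and 8.84 on LCA arrays. The groups did not overlap, with control replicate 2 just above LCA replicate 2. LCA arrays averaged 8.89 ± 0.05 and control arrays 9.004 ± 0.04 (SD, n = 3 each). They differed by −0.11 ± 0.08 on the log2 scale (SE), or 0.923-fold with an interval from 0.814 to 1.05 (limma, adjusted p = 0.480). Only 3.87% of all probe sets had a smaller spread within diets than Hsf.

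**Figure D2:**
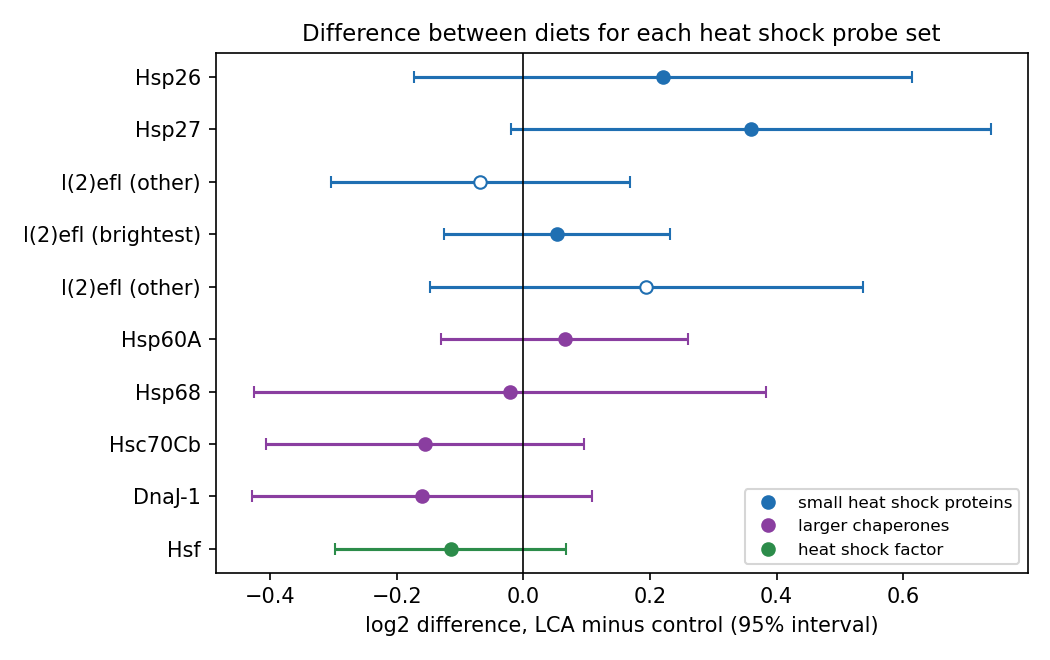
Log2 difference (LCA minus control) of all 10 heat shock probe sets with limma's 95% interval; filled points are the probe sets that stand for a gene, open points the other probe sets of l(2)efl, and colours give the kind of protein. Every interval includes 0, from −0.02 to 0.74 for Hsp27 and from −0.13 to 0.23 for the brightest l(2)efl probe set.

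The intervals set how large a change could have been missed. For 6 of the 8 genes the 95% interval lay within 1.5-fold in either direction. It reached beyond that for Hsp26 (up to 1.53-fold) and Hsp27 (up to 1.67-fold). Of the 8 genes, Hsp68, Hsp26 and Hsp27 varied most between pools of one diet. The spread within diets was 0.25, 0.24 and 0.23 on the log2 scale, larger than in 84.0%, 83.1% and 81.6% of all probe sets. It was 0.04 for the brightest l(2)efl probe set, 0.05 for Hsf and 0.07 for Hsp60A, with 1.93%, 3.87% and 10.9% of probe sets below them. Between these lay Hsc70Cb (0.13) and DnaJ-1 (0.14), with 45.1% and 53.8% of probe sets below them.

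Small heat shock proteins and larger chaperones were compared within each array, as the mean deviation of 3 small genes from their own means over arrays minus that of 4 larger ones. This difference was −0.28, −0.15 and 0.01 on control arrays and 0.03, 0.12 and 0.27 on LCA arrays. The arrays of the diets did not overlap, although control replicate 3 and LCA replicate 1 were almost level. LCA arrays averaged 0.14 ± 0.12 and control arrays −0.14 ± 0.14 (SD, n = 3 each), a difference of 0.28 on the log2 scale. No test was made of it, since the genes were chosen with results of these data known. Of all single genes, 26.1% also did not overlap between diets. The measured small genes outside the set, CG7409, CG4461 and CG13133, were not part of the comparison. They were all lower in LCA flies (−0.16, −0.13 and −0.03).

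Both sides contributed. The small genes averaged 0.21 higher in LCA flies, nearly all of it from Hsp26 and Hsp27, and the larger ones 0.07 lower. On average the small genes were lowest in control replicate 1 (−0.26) and highest in LCA replicate 3 (0.24). The mean of the larger ones was highest in control replicate 2 (0.22) and lowest in control replicate 3 (−0.13). Without control replicate 1 the difference between the diets was 0.21. Marker genes of several tissues also differed between the arrays. Testis markers were higher in LCA flies in 17 of 18 genes (median 0.57, 6 of 18 at an unadjusted p under 0.05), with a summed linear signal of 21011 to 44927 in control flies and 44348 to 51909 in LCA flies. Of these, 4 markers, among them aly and bam, were on average below the array median. Photoreceptor markers were higher in 6 of 6 measured genes of 13 listed (median 0.47, 6 of 6 at an unadjusted p under 0.05), with sums of 23883 to 24251 and 30131 to 31524. Neuron markers were higher in 9 of 9 measured genes of 11 listed (median 0.29, 4 of 9 at an unadjusted p under 0.05). The neuron sums overlapped, at 2833 to 3640 in control flies and 3585 to 4084 in LCA flies. For brp (0.43), the probe sets that do not stand for the gene differed by 0.74, −0.14 and 0.01. Fat body markers were lower in 7 of 10 (median −0.16), with sums of 25148 to 27810 in control flies and 19253 to 23784 in LCA flies. Haemocyte markers were lower in 8 of 9 (median −0.34, 2 of 9 at an unadjusted p under 0.05). The haemocyte sums overlapped, at 1135 to 1540 in control flies and 1152 to 1252 in LCA flies. Accessory gland markers were higher in 8 of 9 (median 0.21, 3 higher and 1 lower at an unadjusted p under 0.05), with sums of 39994 to 46018 and 45994 to 52584. Of the 8 gut markers, whose values by array are given above, 4 were higher and 4 lower. On average 4 of the fat body markers, 5 of the haemocyte markers and 1 neuron marker lay below the array median. The mean difference between 3′ and 5′ control probe sets was also higher on every LCA array than on the control-diet arrays. The margin was narrow, and most single pairs overlapped between diets. This mean difference was highest in LCA replicate 3 (3.61), which was also highest for the small genes. The part of these tissues and of RNA quality in the difference between small and larger heat shock proteins was not tested.

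**Figure D3:**
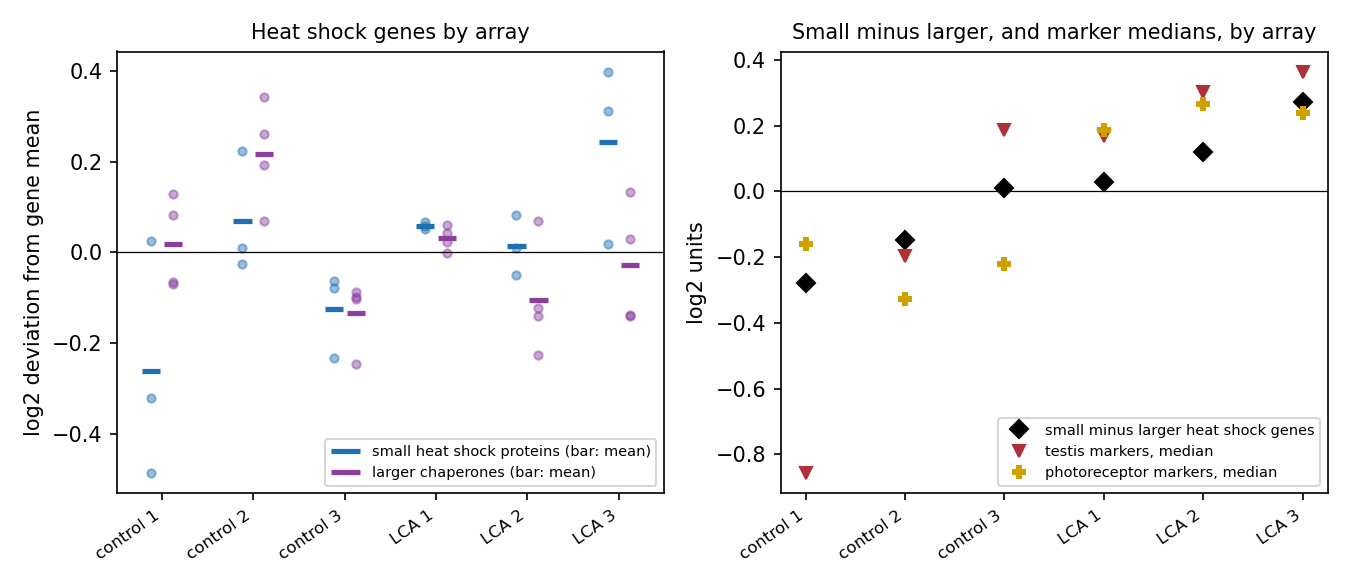
Left, deviation of each small heat shock gene (3) and larger chaperone (4) from its own mean over the 6 arrays in log2 units, with bars at the mean of each kind; right, the difference of those bars on each array beside the median deviation of testis and photoreceptor markers. The difference runs from −0.28 to 0.01 on control arrays and from 0.03 to 0.27 on LCA arrays, and the testis markers are at −0.86 in control replicate 1.

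No chaperone gene listed outside the set passed the adjusted threshold either. Of 13 chaperonin genes, 7 were higher and 6 lower (median 0.03, 0 of 13 at an unadjusted p under 0.05). The 8 CCT subunits of the cytosolic chaperonin differed by −0.18 to 0.07. The Hsp60A paralogs Hsp60B (0.64 ± 0.28), Hsp60C (0.67 ± 0.32) and Hsp60D (0.47 ± 0.30), of which Hsp60B is known to be needed for spermatid individualisation, and the small chaperonin gene CG9920 (0.54 ± 0.24) had the largest differences in this list (SE, limma adjusted p = 0.318 to 0.452). Hsp60B read 9.03, 9.79 and 10.23 on control arrays and 10.15, 10.48 and 10.36 on LCA arrays, low in control replicate 1 as the testis markers were. Hsp60A itself lay 0.07 below its mean over arrays there. The part of testis RNA in the values of these paralogs was not tested.

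Of 12 listed genes of the Hsp70 family, 6 had a probe set of their own, and the heat-inducible Hsp70 copies were not among them. Of the 6, 3 were higher and 3 lower (median 0.12), and 2 passed an unadjusted p under 0.05, against 20.1% of all genes. With so few genes no excess is read from this count. They were Hsc70-2 (0.71 ± 0.27) and Hsc70-1 (0.40 ± 0.15; limma adjusted p = 0.287 and 0.275), while further probe sets of Hsc70-1 differed by −0.10 and −0.14. The probe set that stands for Hsc70-1 carries the suffix for probes shared by several transcripts. Hsc70-2 read 8.47, 9.21 and 9.61 on control arrays and 9.60, 9.89 and 9.94 on LCA arrays, so its groups just overlapped. Like Hsp60B it was lowest in control replicate 1. Hsc70-4, the main constitutive Hsp70 of the cytosol, differed by −0.06 ± 0.07. Hsc70-5 of mitochondria differed by −0.14 ± 0.08, and Hsc70-3, the BiP chaperone of the endoplasmic reticulum, by −0.02 ± 0.11.

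Partners of Hsp70 and Hsp90 went both ways. Of 12 measured of 14 listed, 6 were higher and 6 lower (median 0.01), with 2 higher and 1 lower at an unadjusted p under 0.05. That is 3 of 12, near the 20.1% of all genes. The 3 genes were Trap1, the mitochondrial Hsp90 (0.33 ± 0.10), Sgt, a co-chaperone with TPR repeats (0.27 ± 0.08), and CG1416, related to the Hsp90 activator Aha1 (−0.19 ± 0.08; limma adjusted p = 0.227 to 0.305). Stip1, which bridges Hsp70 and Hsp90, differed by −0.22 ± 0.10 (adjusted p = 0.329) and was highest in control replicate 2 (10.23), like DnaJ-1 and Hsc70Cb.

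Of 10 measured J proteins of 12 listed, 5 were higher and 5 lower (median 0.02), with 2 higher and 1 lower at an unadjusted p under 0.05. That is 30.0% of the list, against 20.1% of all genes (9.63% higher and 10.5% lower), and rests on 3 genes. CG2887 (0.77 ± 0.29) and DnaJ-H (0.41 ± 0.14) were higher, and mrj, a J protein known to act against polyglutamine aggregates, was lower (−0.29 ± 0.10; limma adjusted p = 0.260 to 0.286). Both CG2887 (5.28) and DnaJ-H (9.65) were lowest in control replicate 1, as the testis markers were, and CG2887 averaged 5.94 in control flies, below the array median. The part of testis RNA in these values was not tested. CG5001, the next by p, differed by −0.14 ± 0.09. The brightest jdp probe set (0.06) counted among the higher ones, while its other probe sets differed by 0.14 and −0.33. The last of these was under an unadjusted p of 0.05 but does not stand for the gene in these counts.

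Stress regulators listed with Hsf were all on the lower side, 6 of 6 measured of 8 listed, with a median of −0.18, while 50.3% of all genes were lower. At an unadjusted p under 0.05 there was 1 of the 6 (16.7%), near the 10.5% of all genes that were lower and the 20.1% in either direction. That was foxo, a transcription factor of the insulin pathway whose targets include small heat shock genes (−0.42 ± 0.09, limma adjusted p = 0.139). It read 9.27, 9.06 and 9.17 on control arrays and 8.81, 8.71 and 8.73 on LCA arrays, without overlap. The oxidative stress factor cnc (−0.16 ± 0.09), p53 (−0.20 ± 0.11) and the deacetylase Sirt1 (−0.21 ± 0.12) did not pass. The other cnc probe set, which does not stand for the gene in these counts, differed by −0.22 and was under an unadjusted p of 0.05. The other p53 probe set differed by 0.01.

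**Figure D4:**
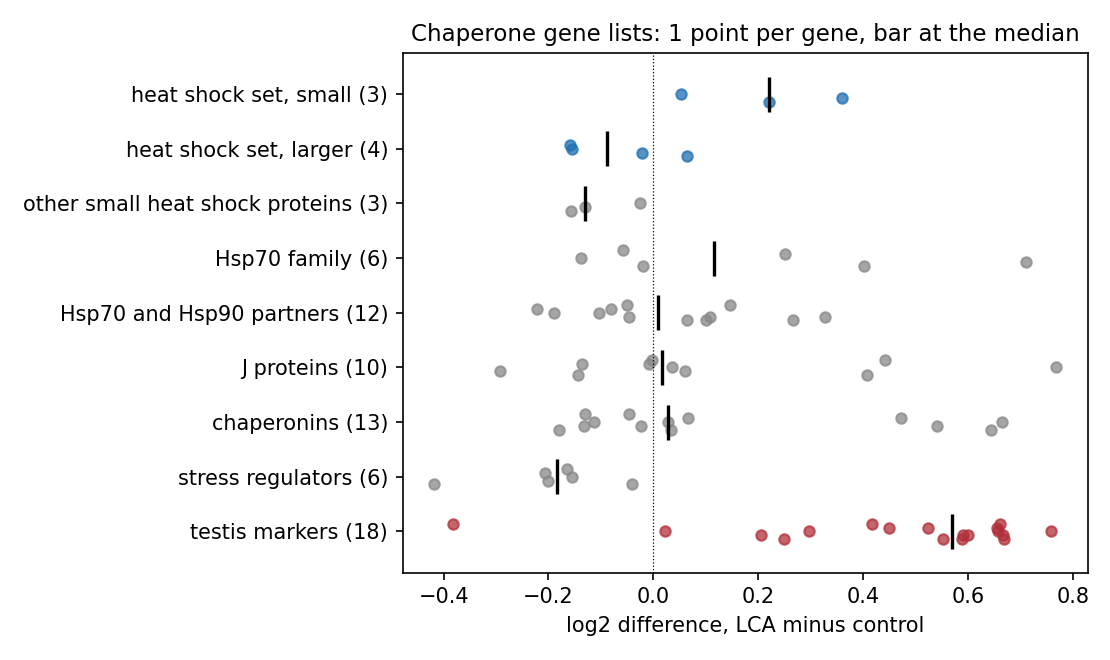
Log2 difference (LCA minus control) of the small and larger genes of the heat shock set, and of each gene in 6 other chaperone and stress lists and among testis markers; 1 point per gene, bars at list medians, number of genes in brackets. List medians run from −0.18 to 0.22 for heat shock and chaperone lists, and the testis markers have a median of 0.57.

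The genes outside these lists whose arrays followed the set most closely were sought among 5183 genes with a range of at least 0.5 (log2). Nearest to the mean of the small heat shock proteins were PolI (Pearson r = 0.978 over the 6 arrays), CG32797 (r = 0.973), CG34001 (r = 0.969), tex (r = 0.961) and l(2)k05911 (r = 0.957), with Spearman rho from 0.771 to 0.943. PolI encodes DNA polymerase iota and read 5.403 in control replicate 1 and 5.96 in LCA replicate 3, its lowest and highest arrays. PolI, CG32797 and l(2)k05911 lay below the array median on every array. Nearest to the larger chaperones were CG5770 (r = 0.994), Mocs1 (r = 0.988), GstZ1 (r = 0.969), CG6484 (r = 0.967) and CG16986 (r = 0.966), with rho from 0.886 to 1.0. CG5770 lay below the array median on all arrays but control replicate 2 (6.40), and GstZ1 on all but control replicates 1 and 2. Mocs1, an enzyme of molybdenum cofactor synthesis, read 7.98 in control replicate 2 and 7.28 in control replicate 3, its highest and lowest arrays. The 6 points share the scaling of the arrays, and the highest r among so many genes is high by selection.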

How the data were processed

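The 6 arrays, 3 per diet, were grouped by their titles. Per the labels' protocols, biotinylated cRNA was made from 1.5 µg of total RNA. The deposited values are log2 signals: they run from 2.32 to 14.64. How the authors summarised, background-corrected and normalized the probes is not given in the sources used here, nor is any batch. The arrays have nearly equal distributions, which can hide a shift common to most genes. No 2 arrays held the same values (smallest median absolute difference 0.10).

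Of 18952 probe sets, 183 array controls were left out. Of the other 18769, 13647 had 1 gene symbol in GEO's platform annotation (13544 found in the gene table of assembly Release 6 plus ISO1 MT), 402 had several and 4720 had none here. The brightest probe set stood for a gene, which gave 11982 genes. Probe sets with several genes were tested but not named. No coordinates or sequences are given.

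limma 3.58.1 under R 4.3.3 gave the tests (linear model per probe set with moderated variance, no covariate, Benjamini-Hochberg over 18769 probe sets, threshold 0.05), and the fit was tested on simulated data. The SE is limma's moderated one. The number of arrays limits the precision. The genes and lists were chosen with earlier results of these data known. Outside the set, up to 4 genes per list with the smallest p were named, and the 5 most alike genes per profile. The CCT subunits, Hsc70-3, Hsc70-4, jdp, aly and bam, and the check gene Mst84Da, were named after their values were seen. Alternatives were quantile normalization, median centring, a filter at the median signal, a floor at the 25th percentile, trended robust eBayes, a replicate block, the mean over a gene's probe sets, the median over genes, and leaving out each array. Same-numbered arrays did not deviate together in every pair (r = 0.26, −0.02 and 0.02 over probe sets), so the numbers were not taken as pairs.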

Additional observations from a re-analysis of the deposited data

How the results depend on the processing

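No heat shock gene passed the adjusted threshold under any of the alternatives tried, and 7 of the 8 kept their direction throughout. Hsp68 did not: its log2 difference ranged from −0.15 to 0.15 when single arrays were left out, and was positive without control replicate 2 (0.15) or LCA replicate 2 (0.09). Median centring brought l(2)efl to 0.004 and Hsp60A to 0.02, so their direction rests on very small values. The replicate block, the trended robust fit, the filter and the floor could not change the direction of these genes. Hsp27 ranged from 0.21 (without control replicate 1) to 0.45 (without control replicate 2), with adjusted p from 0.196 to 0.630 over all alternatives. The count of heat shock genes at an unadjusted p under 0.05 was 0, but 1 with the replicate block (Hsp27, adjusted p = 0.2245 by limma). With single arrays left out it ranged from 0 to 2, the 2 being Hsp26 and Hsp27 without control replicate 2. The floor at the 25th percentile gave 6 probe sets past the adjusted threshold, none of them a heat shock gene. The count of all probe sets at an unadjusted p under 0.05 was 3026. It was 1948 with the filter at the median signal, which tests fewer probe sets, 3535 with the replicate block, and 1666 (without LCA replicate 3) to 4928 (without control replicate 3) with single arrays left out; it was 1799 without control replicate 2 and 1983 without LCA replicate 2. The difference between small and larger heat shock proteins, 0.28, ranged from 0.21 to 0.35 when single arrays were left out. It was 0.27 with quantile normalization, 0.28 with the mean over a gene's probe sets and 0.35 with the median over genes. Median centring, the filter, the floor and the replicate block could not change it, and trended robust eBayes was not applied to it. The causes of these shifts were not tested.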

Other observations

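The 8 subunits of the CCT chaperonin, which folds actin and tubulin, were low together in a single control pool. Control replicate 3 was the lowest array for 6 of the 8, all but CCT5 and CCT8, and lay 0.08 to 0.35 below the mean over arrays (log2). The gap to the next lowest array was wide for CCT3 (9.599 against 9.88) but narrow for CCT4 (8.94 against 9.002), and CCT2 was nearly level (10.397 against 10.401). The mean of the larger heat shock chaperones was also lowest in control replicate 3 (−0.13), as was the median of the gut markers (−0.57). This did not hold for every larger chaperone: Hsc70Cb was lowest in LCA replicate 2 and DnaJ-1 in LCA replicate 3. The median of the larger chaperones was lowest in LCA replicate 2 (−0.131, against −0.100 in control replicate 3). The part of gut RNA in the CCT values was not tested. The subunits were picked out after their values were seen, and no test was made.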
